A study of Mus musculus with 11 samples.

Results

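The comparison described here set brain cells of Lrg1 knockout mice after sham surgery against brain cells of wild-type mice after sham surgery, and so gives the difference between the genotypes without ischemia. The cells were those of the 6 sham libraries with more than 500 genes, more than 1000 unique molecular identifiers (UMIs, each 1 captured transcript) and under 25% mitochondrial UMIs, after removal of marked doublets. These were 48404 of the 124491 cells kept in all 11 libraries of the series, with 31121 cells in sham + WT and 17283 cells in sham + Lrg1-/-.

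The series measured droplet-based single-cell RNA (10x Genomics, 3′ chemistry) in the right brain tissue of 11 mice, 1 library per mouse, after sham surgery or after middle cerebral artery occlusion and reperfusion (MCAO/R), a model of stroke. The sham + WT libraries 1, 2 and 3 came from C57BL/6 males of 8 to 10 weeks bought from a university breeding centre, and in sham surgery the artery was not occluded. The sham + Lrg1-/- libraries 1, 2 and 5 came from a conventional knockout, made by a commercial supplier on a C57BL/6 background (given as C57BL/6N in one place and C57BL/6J in another), in which the part of Lrg1 from exon 1 to the stop codon in exon 2 was removed in every cell of the body. These mice had been backcrossed to C57BL/6N for 4 generations and were housed apart from the wild-type supplier, with an age of 3 months given for the line. Littermate controls were not described, so genotype, colony, substrain and age cannot be told apart in any difference below. Whether the 2 genotypes were operated on and prepared together was not described either, so sample handling cannot be told apart from genotype.

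Lrg1 encodes leucine-rich alpha-2 glycoprotein 1, a secreted protein that binds the co-receptor endoglin and shifts TGF-beta signalling in endothelial cells. In the brain, endothelial cells form the blood-brain barrier through tight junctions and selective transporters, and pericytes and smooth muscle cells wrap the vessel wall. Microglia, the resident macrophages of brain tissue, sense nucleic acids through receptors such as Ifih1 (MDA5), which lead to secretion of interferon-beta and then to interferon-stimulated genes in the same and in neighbouring cells.

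The libraries of the 2 genotypes differed in depth and in content before any gene was compared. Sham + WT libraries held 8881 to 12978 cells each with a median of 6005 to 9757 UMIs per cell, and sham + Lrg1-/- libraries held 3054 to 8900 cells with a median of 4422.5 to 7446 UMIs. The median mitochondrial share was 2.38% to 2.43% in sham + WT and 3.39% to 3.88% in sham + Lrg1-/-. Of the deposited barcodes, 33107 of 36461 passed the cell filters in sham + WT and 18386 of 30150 in sham + Lrg1-/-. The lowest barcode of a library held 500 UMIs in sham + WT and 551 to 645 in sham + Lrg1-/-. The part of these differences in the class shares was not tested. Any pair of the 6 libraries shared 5 to 38 cell barcodes, at most 0.428% of the smaller library.

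The targeted gene was absent from the knockout, which checks the labels. No Lrg1 UMI was seen among the 98069643 UMIs of the typed cells of sham + Lrg1-/-, against 1032 among 299130042 in sham + WT. Lrg1 (chr17:56119678-56122001, minus strand, mm10) was mostly found in endothelial cells, with 158, 563 and 225 UMIs in sham + WT libraries 1, 2 and 3, or 8.12, 25.5 and 7.74 CPM (counts per 1000000 UMIs). The sham + WT library 2 stood above the other two, and all 3 sham + Lrg1-/- libraries were at 0. Against a floor of 3 UMIs over the group, endothelial Lrg1 was at least 101-fold lower in sham + Lrg1-/-, while its edgeR adjusted p was 0.12, above the threshold. The 17 neutrophils of sham + WT held 18 Lrg1 UMIs among 71380, or 252 CPM, and the 18 neutrophils of sham + Lrg1-/- held none among 122389, at least 10.3-fold lower against the same floor. The other 14 types of sham + WT held at most 27 Lrg1 UMIs each.

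Cells were grouped by shared expression and named from fixed markers. A total of 42016 cells fell into 16 named types, and 6388 stayed unnamed because their clusters were led by genes of more than 1 type, held too few markers or failed the other checks on a name. Microglia were 38.8% ± 3.21 (SD, n = 3) of the cells in sham + WT and 11.5% ± 1.62 (n = 3) in sham + Lrg1-/-. Endothelial cells were 21.4% ± 7.29 and 11.9% ± 2.59, and oligodendrocytes 13.6% ± 4.81 and 6.43% ± 3.14, with overlapping libraries in oligodendrocytes and endothelial cells. Choroid plexus epithelial cells, which secrete cerebrospinal fluid, were 1.19% ± 0.184 in sham + WT and 12.3% ± 5.60 in sham + Lrg1-/-. The 3 libraries of each genotype did not overlap in 10 of the 17 classes, where the exact two-sided permutation test gave p = 0.1, the smallest it can give with 3 against 3. Over the 17 classes, the smallest Benjamini-Hochberg adjusted p of these permutation tests was 0.17. A share falls when another class grows, so the shares describe the suspensions, and fewer cells of a type in the brain cannot be told apart from fewer cells released from it.

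**Figure D1:**
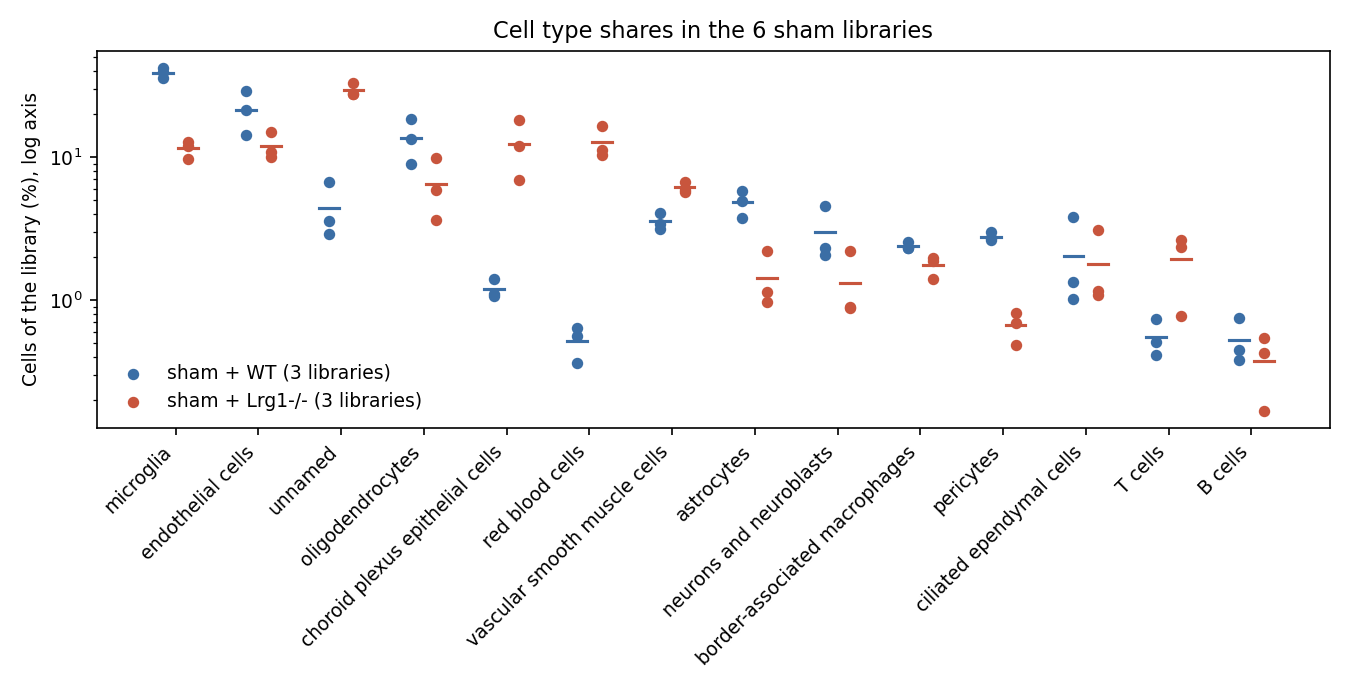
Percent of each sham library's cells in each class (log axis), with 1 point per library and a bar at the group mean. Microglia, astrocytes and pericytes lie lower in all 3 sham + Lrg1-/- libraries, and choroid plexus cells, the haemoglobin-rich cluster and unnamed cells lie higher.

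A cluster led by the haemoglobin genes held 2144 cells of sham + Lrg1-/- and 156 cells of sham + WT. Haemoglobin made up 28.5% to 49.1% of its UMIs in the 3 sham + Lrg1-/- libraries and 0.00501% to 0.260% in the 3 sham + WT libraries. The sham + WT cells of this cluster therefore lacked the markers that define red blood cells, and values of single genes are not given for it, though counts over all 12 clusters include it. The unnamed class was 4.38% ± 2.002 of the cells in sham + WT and 29.3% ± 2.98 in sham + Lrg1-/-, and its 3 largest clusters were led by haemoglobin together with choroid plexus genes (998 cells in sham + Lrg1-/- and 9 in sham + WT), by choroid plexus genes (718 and 121 cells) and by haemoglobin together with smooth muscle genes (584 and 43 cells).

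Free RNA was followed with transcripts that mark other cell types. Haemoglobin (Hba-a1, Hba-a2, Hbb-bs, Hbb-bt) was 0.00136% to 0.135% of the UMIs in the 11 other types of the sham + WT libraries and 0.453% to 9.84% in those of sham + Lrg1-/-. All 11 types were higher in every sham + Lrg1-/- library than in any sham + WT library, with a median ratio of 896. The ratio was lowest in endothelial cells, at 17.7. There haemoglobin was 0.135%, 0.130% and 0.0980% of UMIs in sham + WT libraries 1, 2 and 3, and its source in these cells was not tested. In microglia, for example, haemoglobin averaged 0.00195% ± 0.000178 of UMIs in sham + WT and 2.001% ± 1.29 in sham + Lrg1-/- (n = 3 each). Choroid plexus transcripts (Ttr, Folr1, Clic6, Kl, Kcnj13) outside the choroid plexus were 0.0244% to 0.597% in sham + WT and 0.293% to 4.17% in sham + Lrg1-/-, again without overlap in 11 of 11 types and with a median ratio of 18.9. Myelin transcripts (Mbp, Mobp, Trf) outside oligodendrocytes were higher on average in 11 of 11 types, of which 4 did not overlap, with a median ratio of 1.25. Trf is also made by choroid plexus cells, at 568 ± 72.9 and 472 ± 58.1 CPM there in sham + WT and sham + Lrg1-/-. Mbp alone was called higher in 9 of the 12 clusters tested across genes, by 0.777 to 3.67 on the log2 scale (median 2.03). The ratio of the myelin set was 1.01 in choroid plexus cells and 1.03 in border-associated macrophages. Its direction turned under alternative settings in these types, in microglia and in the haemoglobin-rich cluster. Endothelial transcripts (Cldn5 and Ly6c1 among them) were higher on average in 10 of 11 other types (4 without overlap, median ratio 2.66). Neuronal transcripts were higher on average in 8 of 11 (5 without overlap, median ratio 1.73). The sham + Lrg1-/- suspensions thus carried more haemoglobin and choroid plexus RNA in each type tested, while the rise of the other sets differed between types and genes. The part of this RNA in the differences below was not tested, and genes at under 10% of their level in the type where they are highest are marked as such.

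**Figure D2:**
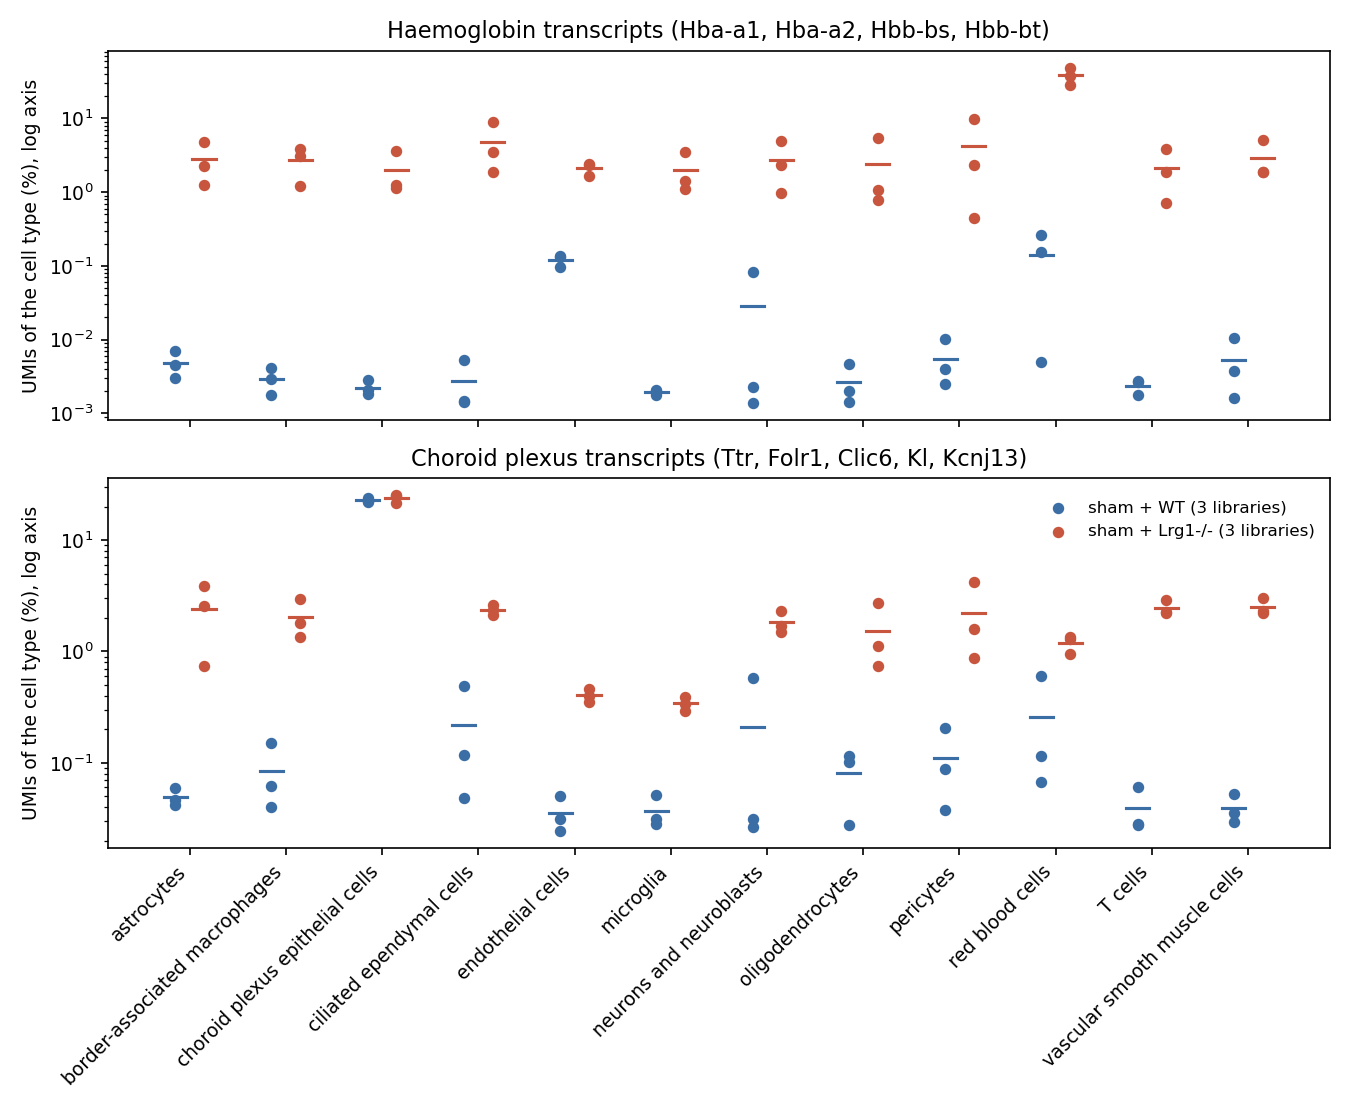
Share of each cell type's UMIs (percent, log axis) taken by haemoglobin (top) and by choroid plexus transcripts (bottom), with 1 point per library and a bar at the group mean. Haemoglobin separates the genotypes in each type drawn, and choroid plexus transcripts do so outside the choroid plexus cells themselves.

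Genes were compared within 12 types on UMIs summed per library, with edgeR's quasi-likelihood test, and genes with a Benjamini-Hochberg adjusted p under 0.05 and an absolute natural-log fold change over 0.25 were called. Microglia had the most calls, with 2750 genes higher (17.9%) and 2620 lower (17.1%) in sham + Lrg1-/- of 15336 tested (35% called in all). Choroid plexus cells followed with 1352 higher (12.3%) and 1921 lower (17.5%) of 10987 (29.8% called). Vascular smooth muscle cells had 1624 higher (13.6%) and 1552 lower (13%) of 11915 (26.7% called). In endothelial cells 1380 genes were higher (9.57%) and 1675 lower (11.6%) of 14414 (21.2% called). T cells had 710 higher (9.28%) and 813 lower (10.6%) of 7647 (19.9% called), and pericytes 756 higher (8.68%) and 578 lower (6.63%) of 8713 (15.3% called). Border-associated macrophages had 626 higher (6.35%) and 598 lower (6.07%) of 9856 (12.4% called). Neurons and neuroblasts had 682 higher (5.37%) and 276 lower (2.17%) of 12694 (7.55% called), and oligodendrocytes 448 higher (3.26%) and 307 lower (2.24%) of 13724 (5.5% called). Astrocytes had 375 higher (3.14%) and 239 lower (2%) of 11941 (5.14% called), and ciliated ependymal cells 295 higher (2.54%) and 61 lower (0.525%) of 11622 (3.06% called). The haemoglobin-rich cluster had 201 higher (3.38%) and 101 lower (1.7%) of 5953 (5.07% called). Whether called or not, all 3 libraries of one genotype lay to one side of the other in 50.7% of the genes tested in microglia, 45.3% in smooth muscle, 43.4% in endothelial, 42.4% in choroid plexus and 38.4% in T cells. This share was 35.7% in oligodendrocytes, 35.6% in neurons and neuroblasts, 33.6% in pericytes, 32.9% in border-associated macrophages, 29.5% in ependymal cells, 27.7% in the haemoglobin-rich cluster and 25.5% in astrocytes. The types differ in cells and depth, so these counts are not an order of effect. Genes that lay under 10% of their level in the highest type made up 42.1% of the higher calls and 11.7% of the lower calls in endothelial cells, and 36.6% and 4.62% in microglia. Over all genes tested the share was 19.8% in endothelial cells and 22.8% in microglia. The higher side also had the larger share in the other types except choroid plexus cells, where it was 15.01% of the higher and 28.3% of the lower calls.

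**Figure D3:**
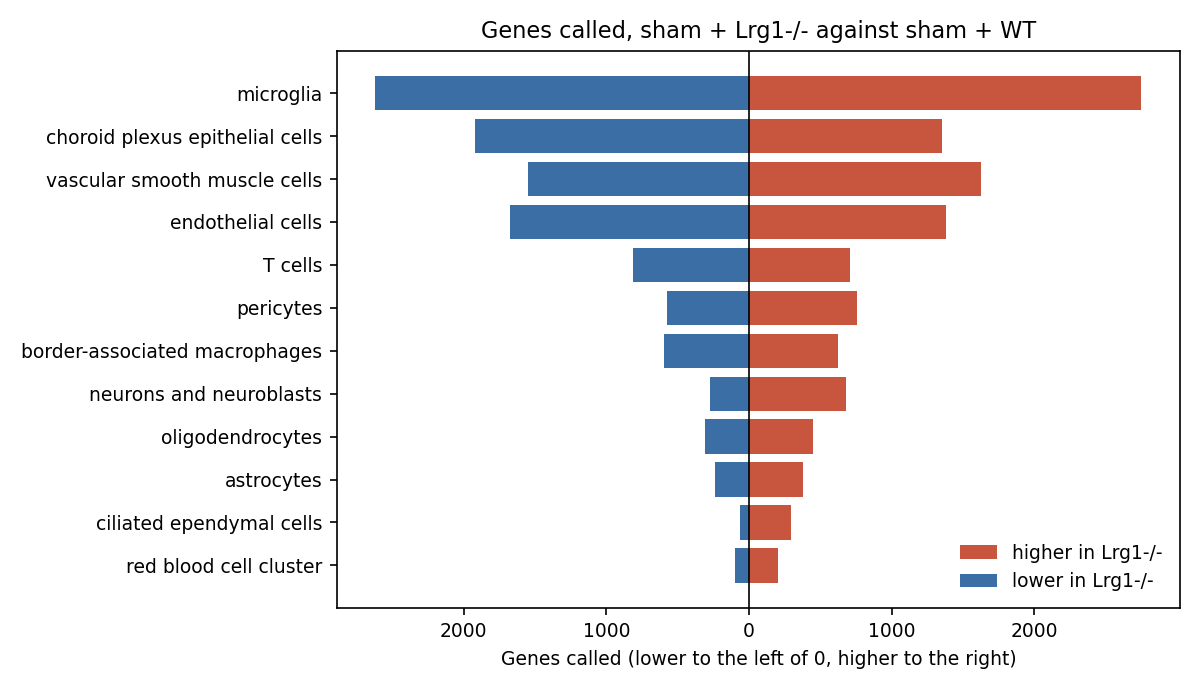
Number of genes called lower (left, blue) and higher (right, red) in sham + Lrg1-/- than in sham + WT in each of the 12 types. Microglia have the longest bars on both sides, with 2750 higher and 2620 lower.

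In microglia, transcripts of interferon-beta, its RNA sensor and its target genes were abundant in sham + WT and close to 0 or many-fold lower in sham + Lrg1-/-. Ifnb1, which encodes interferon-beta, was at 324, 413 and 284 CPM in sham + WT libraries 1, 2 and 3 and at 0.478, 0.209 and 0.799 CPM in sham + Lrg1-/- libraries 1, 2 and 5. The 6 libraries fell into separate ranges by genotype. The difference was -9.57 on the log2 scale (SE 0.27, edgeR adjusted p = 4.1e-11) and rested on 37967 UMIs against 6. Ifih1, the sensor of double-stranded RNA, was at 2005, 2586 and 2242 CPM in sham + WT and at 47.0, 47.6 and 30.4 CPM in sham + Lrg1-/-, 53.3-fold lower (log2 -5.74, SE 0.17, edgeR adjusted p = 3.2e-11). Cxcl10, a chemokine that interferon induces, fell from 1310, 1516 and 1082 CPM to 58.9, 85.5 and 62.3 CPM (log2 -4.24, SE 0.17, edgeR adjusted p = 5.4e-09). Each of the 3 genes stayed called when any single library was left out. Cxcl10, Ifnb1 and Ifih1 were also among the genes that led microglial clusters, and the 3 clusters held 49.98%, 26.1% and 23.9% of the microglia of sham + Lrg1-/- and 44.1%, 34.6% and 21.3% of those of sham + WT.

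Of the other 7 genes that fell furthest in microglia, 5 are interferon-induced. Ifit1 and Ifit2, interferon-induced proteins that bind viral RNA, were lower by 42.7-fold and 43.7-fold, and Oasl1, a member of the oligoadenylate synthetase family, by 30.04-fold. Isg15, a ubiquitin-like modifier, averaged 292 ± 34.0 CPM in sham + WT and 18.8 ± 2.18 in sham + Lrg1-/- (n = 3 each), and Herc6, an enzyme that attaches it in mouse, averaged 311 ± 8.07 and 25.6 ± 5.39 CPM. The list was completed by Klhl38 (log2 -4.06) and the unnamed locus Gm37876 (log2 -3.31). Of the 16 interferon-stimulated genes tested as a list, 10 were called lower and 2 higher, with a median log2 difference of -1.06, against a median of -0.01 over all 15336 genes.

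The upstream sequences of Cxcl10, Ifit1 and Isg15 are shown because these 3 genes fell together and carry, within 250 bases before their start, letters of the element read by interferon regulatory factors. The sequences run 5′ to 3′ on the gene's strand and come from RefSeq on GRCm38.p6, with matches to the letters GAAA, any 2 bases and GAAA again, on either strand, in capitals. They cover chr5:92348890-92349139 (minus) for Cxcl10, chr19:34640639-34640888 (plus) for Ifit1 and chr4:156200819-156201068 (minus) for Isg15.
Cxcl10: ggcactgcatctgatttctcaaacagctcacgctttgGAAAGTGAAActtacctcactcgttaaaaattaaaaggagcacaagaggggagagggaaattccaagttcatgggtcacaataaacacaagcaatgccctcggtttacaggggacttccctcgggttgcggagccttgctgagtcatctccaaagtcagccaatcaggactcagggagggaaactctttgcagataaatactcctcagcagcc
Ifit1: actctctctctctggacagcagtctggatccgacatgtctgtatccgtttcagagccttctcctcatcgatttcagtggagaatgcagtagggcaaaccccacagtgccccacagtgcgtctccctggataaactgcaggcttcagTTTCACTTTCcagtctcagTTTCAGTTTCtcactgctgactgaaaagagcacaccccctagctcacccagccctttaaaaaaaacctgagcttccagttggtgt
Isg15: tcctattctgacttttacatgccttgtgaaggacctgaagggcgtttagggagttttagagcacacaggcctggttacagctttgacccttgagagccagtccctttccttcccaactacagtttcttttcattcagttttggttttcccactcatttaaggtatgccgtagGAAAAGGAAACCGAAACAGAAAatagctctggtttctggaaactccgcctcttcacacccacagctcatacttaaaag
Ifit1 held 2 matches and Isg15 held 3 that overlap each other. In windows from 250 bases before to 50 bases after the start, 4 of the 8 genes with a promoter entry among the 10 most lowered in microglia held a match (50%), as did 7 of the 12 interferon-stimulated genes with an entry (58.3%) and 943 of all 27025 promoters (3.49%). A match describes the letters and does not show that a factor was bound.

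**Figure D4:**
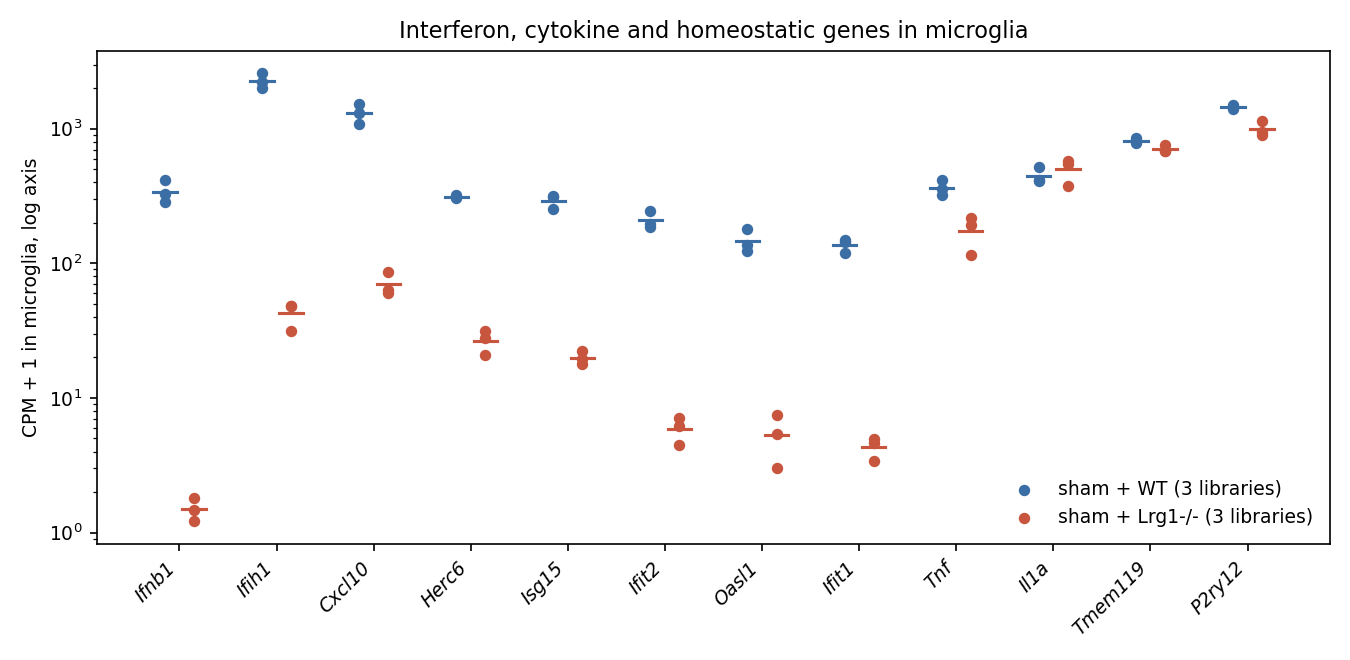
Level of 12 genes in microglia (CPM + 1, log axis), with 1 point per library and a bar at the group mean. From Ifnb1 to Ifit1 the genotypes lie far apart, by 759-fold in the fitted ratio for Ifnb1, while Il1a overlaps and Tmem119 lies close.

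The chemokine Ccl4, the cytokine Tnf and most of the immediate early genes were lower as well. Ccl4, a chemokine of activated microglia, fell from 6095, 6909 and 5338 CPM to 2381, 1282 and 1857 CPM (log2 -1.73, SE 0.20, edgeR adjusted p = 0.00014). Tnf averaged 364 ± 47.5 CPM in sham + WT and 174 ± 53.0 in sham + Lrg1-/- (log2 -1.07, edgeR adjusted p = 0.0082), whereas Il1a did not pass the test (446 ± 60.02 and 498 ± 111 CPM). Of 15 genes of inflammatory cytokines and NF-kappaB signalling, 7 were lower, 2 higher (0 to 4 when a library was left out) and 6 not called. Jun and Fos, the subunits of the AP-1 factor, fell by 1.31 and 1.22 on the log2 scale, from 11370 ± 209 to 4580 ± 362 CPM for Jun. Among 17 immediate early genes 11 were lower and 2 higher, and among 12 heat shock genes 7 were lower (4 without sham + WT library 2) and 1 higher. Over all microglial genes 17.1% were called lower and 17.9% higher.

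Markers of homeostatic microglia were moderately lower. Fcrls, an Fc receptor-like protein, was at 1359, 1189 and 1165 CPM in sham + WT and at 554, 667 and 671 CPM in sham + Lrg1-/- (log2 -0.97, SE 0.11, edgeR adjusted p = 1.1e-05). P2ry12, the purinergic receptor that guides microglial processes, fell from 1450 ± 47.6 to 996 ± 128 CPM (log2 -0.54), and Gpr34 and Olfml3 fell by 0.72 and 0.58 on the log2 scale. Tmem119 was at 815 ± 35.0 and 709 ± 46.5 CPM and did not pass the threshold (edgeR adjusted p = 0.099). In all, 8 of 14 homeostatic genes were lower (57.1%, against 17.1% of all genes). Of 80 ribosomal protein genes 57 were lower (median log2 -0.52), and 4 of 6 MHC class II genes were higher and 2 lower.

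Among genes of at least 20 CPM and at least 10% of their level in the highest type, which leaves out haemoglobin, those that rose furthest in microglia were mostly little described or known from other tissues. Gm17749, a predicted transcript, was at 10.4, 11.2 and 9.88 CPM in sham + WT and at 153, 151 and 151 CPM in sham + Lrg1-/-, a difference with almost no spread (log2 3.85, SE 0.10, edgeR adjusted p = 4.4e-12). Gm43221 rose by 4.999 on the log2 scale, from 1.21 ± 0.263 to 37.6 ± 16.2 CPM. Slc24a1, a sodium, potassium and calcium exchanger known from rod photoreceptors, rose from 4.94 ± 1.18 to 95.7 ± 28.1 CPM. Hao1, a liver glycolate oxidase, rose from 12.4 ± 2.46 to 119 ± 33.8 CPM, and Cyp2r1, a vitamin D 25-hydroxylase, from 5.43 ± 0.200 to 52.1 ± 24.8 CPM. Morn3, Mettl21c, Kcnrg, Stx19 and Gm13684 rose by 3.04 to 3.99 on the log2 scale. Morn3 was at 30.3% of its level in the type where it was highest, and microglia were the highest type for the other 9. These levels are means over both genotypes. In sham + WT microglia the genes averaged 1.21 to 12.4 CPM, so they passed the 20 CPM limit through sham + Lrg1-/- alone. The highest type can rest on that genotype too.

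Among called endothelial genes of at least 20 CPM and at least 10% of their level in the highest type, the largest fall was in Plvap, which forms the diaphragms of fenestrated capillaries and is scarce in mature barrier vessels. It was at 53.6, 56.4 and 82.4 CPM in sham + WT and at 4.41, 5.87 and 6.95 CPM in sham + Lrg1-/-, 11.6-fold lower (log2 -3.53, SE 0.24, edgeR adjusted p = 6.9e-05). Lmntd1 fell from 173 ± 16.3 to 42.8 ± 9.79 CPM, and the nuclear long non-coding RNA Neat1 from 653 ± 34.9 to 199 ± 18.0 CPM (log2 -1.72). Pdk4, a kinase that restrains pyruvate oxidation, and the adhesion protein Cd24a fell by 1.46 and 1.43 on the log2 scale, and Sdk1, Lonrf3, Abtb2, Gm47507 and Gm43260 completed the 10 most lowered.

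The endothelial clusters were filled differently in the 2 genotypes. A cluster led by Cxcl12, Car4 and Spock2 held 966 of the 2022 endothelial cells of sham + Lrg1-/- and 1867 of the 6363 of sham + WT, and a cluster led by Hmcn1, Ndnf and Slc1a1 held 465 and 2841. Within the 4 single clusters the counts of called genes were 1028 to 2098, against 3055 in the pooled endothelium. Plvap was among the leading genes of a cluster led by Vegfc and Gkn3, with 391 and 1312 cells, which was the only cluster of the 4 where it passed the filter on low counts. There it differed by -3.26 on the log2 scale (edgeR adjusted p = 1.06e-10). Lmntd1 and Neat1 were called lower in each of the 4 clusters, by 1.28 to 2.33 and 1.31 to 1.78 on the log2 scale.

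Barrier genes included members that fell and members that did not pass the test. Cldn5, the main claudin of the barrier, was at 4720 ± 139 CPM in sham + WT and 5016 ± 316 in sham + Lrg1-/-, and Abcb1a, the P-glycoprotein efflux pump, at 1113 ± 26.1 and 1193 ± 64.8 CPM. Neither passed the test (edgeR adjusted p = 0.48 and 0.36). Among 14 junction genes, 4 were lower, among them Pecam1 (log2 -0.56), N-cadherin Cdh2 (-0.70) and Jam3 (-0.50). That is 28.6% of the list, against 11.6% called lower over all endothelial genes. Among 15 transport genes, the cationic amino acid carrier Slc7a1 fell (log2 -0.66) and the scavenger receptor Lrp1 rose (log2 0.80), Lrp1 being at 2.68% of its level in its highest type. That is 13.3% of the list called, below the 21.2% called over all endothelial genes. Glucose transporter Slc2a1 was at 1598 ± 9.06 and 1425 ± 151 CPM and Mfsd2a, the lipid carrier, at 177 ± 24.9 and 153 ± 25.7 CPM, neither past the threshold.

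The TGF-beta pathway, in which Lrg1 acts, had members called in both directions. Of 29 genes tested in endothelial cells, 4 were higher and 7 lower (37.9% called, against 21.2% of all genes), with a median log2 difference of -0.07. Id1, a target of the ALK1 branch, rose from 1156, 1182 and 1318 CPM to 1937, 1942 and 2080 CPM (log2 0.70, SE 0.08, edgeR adjusted p = 9.9e-05). The groups did not overlap, and Id1 was called higher within each of the 4 single clusters. The ligand Tgfb1 and its type I receptor Tgfbr1 fell by 0.51 and 0.45 on the log2 scale. Of 18 angiogenesis and Notch genes 5 were lower (27.8%, against 11.6% of all genes). Among them were the tip-cell gene Esm1 (14.3 ± 4.42 to 2.28 ± 1.501 CPM), the apelin receptor Aplnr, the VEGF co-receptor Nrp1 and the Notch ligand Dll4 (log2 -2.53, -1.59, -0.67 and -0.62).

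Higher endothelial genes included antigen presentation and translation. B2m, the light chain of MHC class I, rose from 630, 641 and 631 CPM to 1230, 1391 and 1525 CPM (log2 1.12, SE 0.09, edgeR adjusted p = 6.7e-06), and 7 of 10 MHC class I genes were higher. Over all endothelial genes 9.57% were called higher. H2-Q7, another class I gene, averaged 42.6 ± 14.4 and 153 ± 59.9 CPM, and its call held in 1 of 6 fits that left out a library. Ribosomal protein genes were higher in 71 of 80 (median log2 0.56) and nuclear genes of oxidative phosphorylation in 43 of 81. Gm11290 rose by 2.90 on the log2 scale, Il31ra, a subunit of the interleukin-31 receptor, from 12.2 ± 0.229 to 35.3 ± 0.527 CPM, and Camk1d, a calmodulin-dependent kinase, from 274 ± 14.8 to 682 ± 108 CPM. Tmem100, an endothelial membrane protein, Ccdc152, Hist1h4d, Gm19951, Cmss1 and Rpl23a made up the rest of the 10 most raised. That ranking covers called genes without overlap, of at least 20 CPM and at least 10% of their level in the highest type. Markers of microglia moved too, with 13 of 14 homeostatic microglia genes called higher in endothelial cells (median log2 0.67). Their part in the endothelial differences was not tested.

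Choroid plexus cells were taken in larger numbers from sham + Lrg1-/- (2458 cells) than from sham + WT (368 cells). Their own transcripts took 22.9% of UMIs in sham + WT and 24.0% in sham + Lrg1-/-, and Ttr, the thyroid hormone carrier, did not pass the test (edgeR adjusted p = 0.22). The light-entrained clock gene Per2 fell from 25.1, 33.7 and 31.2 CPM to 5.63, 3.63 and 4.92 CPM (log2 -2.63, SE 0.23, edgeR adjusted p = 3e-06). Nfatc2, a calcium-dependent transcription factor, and Grm8, a glutamate receptor, fell by 3.20 and 2.73 on the log2 scale. All 79 ribosomal protein genes tested were higher (median log2 0.94), whereas all 13 protein-coding genes of the mitochondrial genome were lower (median -0.94). Of 18 secretion and transport genes 4 were lower (22.2%, near the 17.5% of all genes), and 2 without sham + WT library 2 or sham + Lrg1-/- library 1. Among the 4 were the bicarbonate transporter Slc4a10 (472 ± 71.5 to 232 ± 51.1 CPM) and the chloride cotransporter Slc12a2 (432 ± 55.1 to 274 ± 11.1 CPM). Of 22 cholesterol synthesis genes 10 were lower and 1 higher. Over all genes in these cells 12.3% were called higher and 17.5% lower. S100a8 and S100a9, calgranulins of neutrophils, rose from 1.15 and 1.45 CPM to 46.9 and 58.5 CPM, with the call held in 3 and 2 of 6 fits without a library. Neutrophils were too few to count as the highest type, so the 10% limit could not mark their RNA. An unnamed cluster led by S100a8, Retnlg, S100a9 and haemoglobin held 269 cells of sham + Lrg1-/- and 12 of sham + WT. The part of neutrophil RNA was not tested. The interferon-induced Ifit3 rose from 4.22 ± 1.33 to 21.0 ± 6.46 CPM. The 4 clusters of this class were unevenly filled, and 1 of them held 358 cells of sham + Lrg1-/- and none of the 368 of sham + WT. Markers of microglia moved in this class too, with 14 of 14 homeostatic microglia genes called higher (median log2 1.19, and 9 genes without sham + WT library 1 or 2 or sham + Lrg1-/- library 2), and their part in the differences was not tested.

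In the vessel wall, smooth muscle cells of sham + Lrg1-/- had less of 4 of 11 contractile genes, a count of 1 without sham + WT library 2 or sham + Lrg1-/- library 2 and 2 without sham + WT library 3. A cluster led by Crispld2 and Myh11 held 70.2% of these cells in sham + Lrg1-/- and 85.02% in sham + WT, and a cluster led by Mustn1 and Myl9 held the rest. Tpm1, tropomyosin 1, fell from 3128 ± 194 to 2042 ± 290 CPM, and Tagln, Myh11 and Cnn1 fell by 0.41, 0.44 and 0.49 on the log2 scale, while Acta2 did not pass the test (14980 ± 450 and 13660 ± 687 CPM). Per2 was also lower in these cells (31.2 ± 1.49 to 7.90 ± 2.36 CPM, log2 -1.92, edgeR adjusted p = 0.00033), as was the ubiquitin ligase March3 (49.2 ± 4.47 to 13.5 ± 1.68 CPM). Among genes at 10% or more of their level in the highest type, those that rose most were Gkn3, Tmem252, Ly6c1 and Gsta4, at 10.1% to 21.8% of it. These levels are means over both genotypes. The 4 genes stood at 3.92 to 56.1 CPM in sham + WT and at 43.3 to 471 CPM in sham + Lrg1-/-. Without the 10% limit, all 18 choroid plexus secretion and transport genes were called higher too (median log2 4.33). Ly6c1, an endothelial surface protein, went from 61.5, 50.8 and 56.0 CPM to 237, 421 and 754 CPM. The endothelial transcripts followed as free RNA went from 0.0323% to 0.128% of smooth muscle UMIs, without overlap. Of 13 endothelial junction genes 8 were called higher and 2 lower, and of 15 barrier transport genes 7 and 1. Over all genes in these cells 13.6% were called higher and 13% lower. The part of endothelial RNA in the smooth muscle differences was not tested. Pericytes, with 105 cells in sham + Lrg1-/- and 861 in sham + WT, had all 79 ribosomal protein genes higher (median log2 1.13) and 8 of 14 interferon-stimulated genes higher (5 without sham + WT library 2 or 3 or sham + Lrg1-/- library 5). Over all pericyte genes 8.68% were called higher. The pericyte clusters were filled differently, since 1 of them held 55.2% of the sham + Lrg1-/- and 20.2% of the sham + WT pericytes and another 5.71% and 32.5%. Sfrp2, a secreted Wnt modulator, was at 67.2, 62.1 and 51.9 CPM in sham + WT and at 0, 4.32 and 0 CPM in sham + Lrg1-/- (log2 -5.04, SE 0.68, edgeR adjusted p = 9.1e-05). Zmat4 had 138 UMIs in sham + WT pericytes and 0 in sham + Lrg1-/-, which against the floor of 3 UMIs is at least 7.18-fold lower.

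Border-associated macrophages, which line the meninges and vessels, shared the fall of Cxcl10 and of immediate early genes with microglia, while 0 of 16 interferon-stimulated genes were called by edgeR or DESeq2, with 1 at an unadjusted p below 0.05 by each (median log2 0.24). Cxcl10 fell from 386, 486 and 283 CPM to 128, 164 and 68.8 CPM (log2 -1.61, SE 0.27, edgeR adjusted p = 0.0051). Of 17 immediate early genes 11 were lower, with Jun falling from 11000 ± 870 to 3985 ± 594 CPM, and 7 of 12 heat shock genes were lower, with Hspa1b falling by 2.65. Without sham + WT library 3 the count of immediate early genes was 6, and without sham + Lrg1-/- library 1 that of heat shock genes was 4. Over all genes in these macrophages 6.07% were called lower. In contrast to Cxcl10, Il1b rose from 27.3, 54.9 and 29.2 CPM to 172, 157 and 140 CPM (log2 2.10, SE 0.24, edgeR adjusted p = 0.00038). The monocyte chemokine Ccl2 and the neutrophil chemokine Cxcl1 also rose, by 0.78 and 1.33 on the log2 scale. Il1b was also among the leading genes of the neutrophil and monocyte clusters, which had too few cells per library to give a level. The part of neutrophil and monocyte RNA in these rises was not tested. AY036118, which overlaps ribosomal RNA sequence, and Cmss1 rose by 2.86 and 2.09. Neutrophils numbered 17 cells in sham + WT and 18 in sham + Lrg1-/-, too few for a test across genes, and the microglial rise of Il1b missed the threshold (30.01 ± 13.2 to 81.0 ± 23.6 CPM, edgeR adjusted p = 0.058).

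T cells numbered 331 in sham + Lrg1-/- and 171 in sham + WT. Their cluster was led by Gzma, and Nkg7 and Ccl5 were among its leading genes beside Trbc2 and Cd3g. Natural killer cells were not named apart from T cells, so changes in their proportions cannot be told apart from changes per cell. Of 78 nuclear genes of oxidative phosphorylation 71 were higher (median log2 1.18), as were 9 of 15 glycolysis genes and 5 of 10 MHC class I genes. Of 16 immediate early genes 7 were lower (3 without sham + WT library 1 or 3, 4 without sham + Lrg1-/- library 1), and of 12 heat shock genes 5 were lower (3 without sham + WT library 2 or 3). The 5 MHC class I genes were 3 without sham + WT library 1 or 2. Of 15 barrier transport genes 7 were called lower and 0 higher, and of 13 endothelial junction genes 5 and 0. Over all T cell genes 10.6% were called lower and 9.28% higher. Choroid plexus transcripts went from 0.0389% to 2.45% of T cell UMIs. The part of endothelial and choroid plexus RNA in the T cell differences was not tested. Ifih1, Oasl1 and Cxcl10 were lower (log2 -4.402, -4.13 and -3.87), and Ifnb1 had no UMI in the sham + Lrg1-/- T cells, at least 60.8-fold lower against the floor of 3 UMIs. Microglial transcripts were 0.215% of T cell UMIs in sham + WT and 0.228% in sham + Lrg1-/-, and their part in these falls was not tested.

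Astrocytes of sham + Lrg1-/- (214 cells, against 1543) had 5 of 11 homeostasis genes lower, a count of 1 to 4 when a library was left out (1 without sham + WT library 2 or 3, 2 without sham + WT library 1 or sham + Lrg1-/- library 2, 3 without sham + Lrg1-/- library 1). Slc1a3, the glutamate transporter, fell from 2735, 2969 and 2815 CPM to 1162, 1456 and 830 CPM (log2 -1.30, SE 0.29, edgeR adjusted p = 0.029). Glutamine synthetase Glul, connexin 43 (Gja1) and the sphingosine receptor S1pr1 fell by 1.14, 1.26 and 1.46, whereas the potassium channel Kcnj10 was at 144 ± 24.4 and 135 ± 54.1 CPM and did not pass (edgeR adjusted p = 0.90). Leaving out a library kept the call in 6 of 6 fits for S1pr1, 3 of 6 for Gja1, 2 of 6 for Slc1a3 and 1 of 6 for Glul. Gfap, the intermediate filament of reactive astrocytes, fell from 103 ± 31.8 to 12.4 ± 1.01 CPM (log2 -3.05), while Vim rose by 1.61 at 6.24% of its level in its highest type. The cholesterol pathway was lower in 7 of 22 genes, among them Idi1, Sqle, Msmo1 and Sc5d (log2 -1.26 to -1.65). Over all astrocyte genes 2% were called lower. Cxcl10 and Ifih1 were lower too (log2 -4.39 and -3.68), at 10.7% and 11.8% of their level in microglia.

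Neurons and neuroblasts also had 9 of 22 cholesterol synthesis genes lower (median log2 -0.72), a count of 3 without any one of the sham + WT libraries, 6 without sham + Lrg1-/- library 2 and 12 without library 1. Idi1, an isomerase of the pathway, went from 91.5 ± 7.16 to 24.7 ± 9.23 CPM. Over all genes in this class 2.17% were called lower. The transcription factor Neurod1 fell, from 26.3, 49.0 and 44.6 CPM in sham + WT to 4.18, 2.34 and 0 CPM in sham + Lrg1-/- (log2 -3.53, SE 0.51, edgeR adjusted p = 0.0076). Eomes fell by 2.84 and Rnd2 by 2.76, at 64.9% and 91.1% of their level in the types where they were highest (T cells and pericytes), and Tac2, the neurokinin B precursor, had no UMI in sham + Lrg1-/-, at least 18.2-fold lower against the floor. The class pools several neuronal stages, and changes in their proportions cannot be told apart from changes per cell.

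Oligodendrocytes had few calls once any of several libraries was left out. The myelin gene Opalin was at 1003 ± 51.2 CPM in sham + WT and 605 ± 27.6 in sham + Lrg1-/- (log2 -0.73, edgeR adjusted p = 0.037), and Aspa, which cleaves N-acetylaspartate, at 771 ± 60.7 and 429 ± 85.5 CPM. These were the 2 of 16 myelin genes called, both lower, and each held in 1 of 6 fits without a library, with the libraries of each genotype apart in both genes. The oligodendrocyte clusters were filled differently, since 1 led by Opalin and Mag held 48.6% of the sham + Lrg1-/- and 27.1% of the sham + WT cells and 1 led by Slc24a2 and Nkain2 held 16.2% and 36.3%. C4b, a complement gene of reactive oligodendrocytes, rose from 6.05 ± 1.16 to 20.4 ± 4.62 CPM, as the 1 gene called of 7 in the reactive oligodendrocyte list (median log2 -0.28). Over all oligodendrocyte genes 2.24% were called lower and 3.26% higher. The count of calls in oligodendrocytes went from 755 to 0 without sham + WT library 2 or library 3 (edgeR, with 2254 and 2285 genes at an unadjusted p below 0.05), and to 15 without sham + Lrg1-/- library 1, and was 8 to 3048 within single oligodendrocyte clusters.

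Across the 12 tested clusters, which include the haemoglobin-rich one, a small set of genes was called in all or nearly all. Of 5615 genes called higher in at least 1, 59.7% were higher in 1 alone and 28 in 10 or more. Of 6518 called lower, 64.5% were lower in 1 alone and 2 in 10 or more. Those were Ifnb1, lower in all 12, and Ifih1, lower in 10. Outside microglia and the haemoglobin-rich cluster, Ifnb1 averaged 15.5 CPM (choroid plexus cells) to 54.4 CPM (T cells) in sham + WT and 0 to 2.55 CPM in sham + Lrg1-/-, against 340 CPM in sham + WT microglia. Microglial transcripts (C1qa, C1qb, C1qc, Ctss, P2ry12) measured in 10 types other than the 2 macrophage types were on average higher in sham + Lrg1-/- in 9, with a median ratio of 1.64. In sham + WT they took 0.0698% of UMIs in choroid plexus cells and 0.215% in T cells, against 1.65% in microglia. Microglia of sham + Lrg1-/- averaged 0.495 CPM of Ifnb1. The part of carried microglial RNA in the falls of Ifnb1 and Ifih1 outside microglia was not tested. Hba-a2 was higher in all 12, and Hba-a1 and Hbb-bs in 11. The choroid plexus genes 2900040C04Rik and Calml4 were higher in 12 and 11, and Ube2l6, which is also an erythroid gene, in 12. Cmss1, a ribosome maturation gene, was higher in all 12 by 0.92 to 3.05 on the log2 scale, and its level was highest in endothelial cells. Lgals1 (galectin 1) and Rasl11a were higher in 11.

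Ribosomal protein genes were lower in microglia, and were called higher in 15 to 79 genes each in choroid plexus, pericytes, smooth muscle, endothelial cells, astrocytes, border-associated macrophages, oligodendrocytes, T cells and ependymal cells. In the last 5 types the count rested on the libraries used, with 45, 45, 21, 16 and 15 genes against 3, 17, 0, 2 and 0 without sham + WT library 2. Smooth muscle contraction genes were called higher outside smooth muscle cells, in 11 of 11 tested genes in microglia, 8 of 9 in astrocytes and 7 of 11 in endothelial cells, beside the clusters of mixed smooth muscle and haemoglobin content. Over all genes tested, 17.9% were called higher in microglia, 3.14% in astrocytes and 9.57% in endothelial cells.

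**Figure D5:**
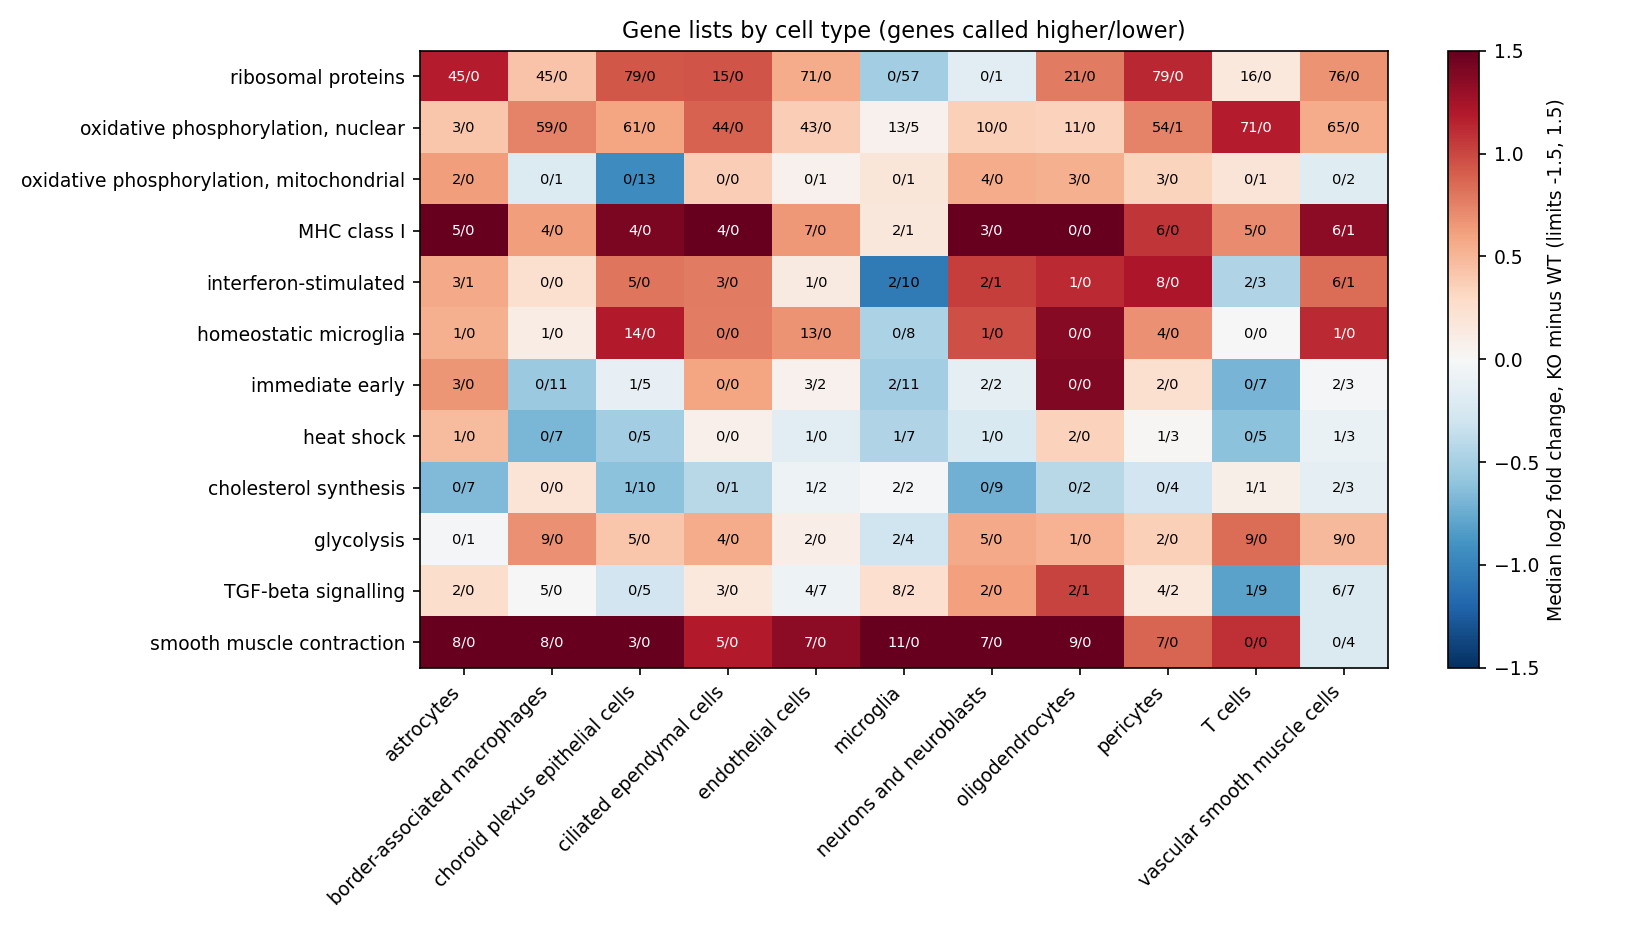
Median log2 difference of 12 gene lists (rows) in 11 cell types (columns), with the number of genes called higher and lower printed in each cell and the colour limited at -1.5 and 1.5. Microglia have 57 ribosomal protein and 10 interferon-stimulated genes called lower, while the other types have 0 or 1 ribosomal protein gene and 0 to 3 interferon-stimulated genes called lower.

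The same genotype difference was measured in the MCAO/R libraries, which came from other mice. The sign was shared by 72.2% of the called microglial genes and by 61.1% of all genes tested, by 86.8% and 70.7% in endothelial cells and by 96.6% and 81.0% in choroid plexus cells. Microglial Ifnb1, Ifih1 and Cxcl10 were lower there also, by 4.67, 4.12 and 1.25 on the log2 scale. The homeostatic microglia genes differed, with a median of -0.48 after sham and 0.48 after MCAO/R and the same sign in 3 of 14. By the test of the difference between the genotype effects (interaction), 1549 of 18311 genes were called in microglia (8.46% called) and 810 of 16362 in endothelial cells (4.95% called). Fewer passed in oligodendrocytes (84, 0.517% called), border-associated macrophages (24, 0.214% called), pericytes (8, 0.0749% called), T cells (4, 0.0389% called), smooth muscle cells (4, 0.0308% called) and choroid plexus cells (1, 0.00803% called). By the same edgeR test 0 genes (0% called) passed in astrocytes, ependymal cells, neurons and the haemoglobin-rich cluster, with 882, 776, 996 and 680 genes at an unadjusted p below 0.05. Of the 3 MCAO/R + Lrg1-/- libraries, libraries 1 and 2 held Xist at 357 and 468 CPM with Y-linked transcripts at 0.433 and 0.498 CPM, as in females, whereas library 5 held Y-linked transcripts at 270.3 CPM. Sex therefore differed within that group, and with library 5 alone as the knockout after MCAO/R the interaction calls were 1015 in microglia and 572 in endothelial cells, but 433 in smooth muscle cells, 40 in the haemoglobin-rich cluster, 30 in choroid plexus cells and 0 in oligodendrocytes (edgeR, with 1403 genes at an unadjusted p below 0.05). In that fit the spread came from the other 3 groups, and library 5 was assumed to vary like them.

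All 6 sham libraries had the pattern of males, with Xist at most 1.16 CPM and the 4 Y-linked genes together at 209 to 263 CPM in sham + Lrg1-/- and 432 to 487 CPM in sham + WT. Of the substrain genes, Wdfy1 was higher in sham + Lrg1-/- in 6 types, among them endothelial cells (19.7, 21.5 and 21.4 against 40.8, 44.0 and 45.1 CPM). Nnt was at 1.73 ± 0.138 and 1.06 ± 0.649 CPM there and did not pass the test. Of the 48 genes within 500 kb of Lrg1, 28 were tested in endothelial cells, of which 4 were higher and 2 lower (21.4%, against 21.2% of all genes), and 31 in microglia, of which 1 was higher and 3 lower (12.9%, against 35% of all genes). Without sham + WT library 3 the 4 higher endothelial genes were 2. Rpl36, a ribosomal protein gene in this interval, was higher in endothelial cells by 0.78 on the log2 scale.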

How the data were processed

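The deposited files held unnormalized UMI counts for each gene in each cell barcode, which the authors made with Cell Ranger (7.0.1 per the file headers, against an earlier version in the methods) on mm10. No normalization had been applied, and 0 columns were left unused. Barcodes with over 500 genes, over 1000 UMIs and under 25% mitochondrial UMIs were kept, and 6% of them per library were removed as doublets by neighbourhood score, which replaced Scrublet. Cells were clustered on 2000 variable genes without haemoglobin genes and Ttr (15 components, leidenalg 0.10.2) and clusters named from markers. Neighbours of each cell were taken in equal number from every library. Larger clusters that stayed unnamed or held markers of another type were split once more. Counts were summed per library and type with at least 20 cells. They were tested with edgeR 4.0.16 (TMM, robust quasi-likelihood, R 4.3.3) in a fit of the 6 sham libraries, after a filter on low counts. Shares and tracers were compared by exact permutation (numpy 2.4.6). Alternatives were RLE factors, DESeq2 1.42.0, no filter, a fit of all groups, other cell filters, thinning to 1000 UMIs and leaving out each library. Genes within 500 kb of Lrg1 were counted by annotation. The test was tested on simulated data, where it recovered 84 of 99 endothelial (84.8%), 74 of 97 microglial (76.3%) and 32 of 93 T cell genes (34.4%) changed by 1 on the log2 scale and 94.8% to 100% of those changed by 2, with 4 to 8 false calls among 14242, 15165 and 7395 genes. The simulation gave all genes of a type the same spread between libraries, changed few genes and held no free RNA. It therefore does not give the rate of false calls in the real counts. The genes named are the 10 (endothelial cells, microglia, oligodendrocytes) or 4 (other types) called genes with the largest difference in each direction. They had no overlap between groups, a mean of at least 20 CPM and at least 10% of the level in the highest type. That level was a mean over the sham libraries of both genotypes, so a gene could pass through 1 genotype alone. Neutrophils and monocytes had too few cells per library to give a level. The most widely called genes and the list members with the lowest adjusted p were named too, and further genes were named after their values were seen. Members and lists were chosen with earlier results of these data known. Each library is 1 mouse, so p-values measure the spread between 3 mice per genotype, and intervals and floors cover counting error only. Some genes that the rule names are not reported here, and the myelin and microglial tracers leave out 1 gene each.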

Additional observations from a re-analysis of the deposited data

Results flagged for a closer look

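The genotype difference after sham was set against that after MCAO/R, and 21 of the 239 named results differed between the surgeries by the interaction test of edgeR with Benjamini-Hochberg adjustment. These were 14 of 29 named in microglia (8.46% called over all genes), 6 of 30 in endothelial cells (4.95%) and 1 of 17 in border-associated macrophages (0.214%). Most named genes were chosen for a large difference after sham. Values are the difference after sham minus the difference after MCAO/R on the log2 scale. In microglia, 6 genes of the interferon system were lower in sham + Lrg1-/- by more than in MCAO/R + Lrg1-/-, with -4.96 for Ifnb1, -3.96 for Ifit1, -3.05 for Cxcl10, -2.56 for Isg15, -1.74 for Herc6 and -1.69 for Ifih1. Ifit2 (-3.64) and Oasl1 (-2.24) did not pass this test (edgeR adjusted p = 0.056 and 0.077). Microglial genes that were higher by more after sham were Gm43221 (3.35), Stx19 (2.59), Cyp2r1 (2.23), Mettl21c (2.03), Morn3 (1.85), Cmss1 (1.62), Kcnrg (1.55) and Gm17749 (0.66).

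In endothelial cells, Plvap fell by more after sham (-2.16), and Cd24a fell after sham and rose after MCAO/R (-1.93). Gm11290 (2.60) and Hist1h4d (1.35) rose by more after sham, whereas Lgals1 (-1.68) and Ube2l6 (-1.27) rose by more after MCAO/R. In border-associated macrophages, AY036118 rose by more after sham (2.61).

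With MCAO/R + Lrg1-/- library 5 alone, the knockout library of that group with Y-linked transcripts, 14 of the 21 stayed past the threshold, with the spread taken from the other 3 groups and the lone library assumed to vary like them. The exceptions were Gm11290, Lgals1 and Plvap in endothelial cells (2.69, -1.61 and -1.49) and Cyp2r1, Gm17749, Kcnrg and Morn3 in microglia (2.25, 0.55, 1.05 and 1.56), all with the same direction. Sex in the MCAO/R + Lrg1-/- group and its part in these differences was not tested further.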

How the results depend on the processing

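Counts of called genes are given as alternatives to the values in the text. Kept doublets gave 957 in astrocytes and 2842 in oligodendrocytes. A limit of 10% mitochondrial UMIs gave 859 in choroid plexus cells, 631 in ependymal cells and 456 in oligodendrocytes. DESeq2 gave 1024 in astrocytes, 749 in ependymal cells and 2158 in oligodendrocytes. A fit of all 4 groups gave 605 in border-associated macrophages, 1825 in oligodendrocytes, 84 in the haemoglobin-rich cluster and 1336 in smooth muscle cells. No filter gave 1565 in astrocytes, 1933 in border-associated macrophages, 1028 in ependymal cells and 1599 in neurons (914 higher and 685 lower). The larger side turned to the lower genes without the filter in pericytes (746 higher and 934 lower) and microglia (2906 and 3241). The same held in border-associated macrophages (906 and 1027) and smooth muscle cells (1848 and 2066). It turned in microglia also in the fit of all 4 groups (1921 and 2227) and with replicate number as a block (2584 and 2697). DESeq2 turned it in border-associated macrophages (461 and 496). In smooth muscle cells RLE factors (1572 and 1638), 10% mitochondrial UMIs (1634 and 1805) and kept doublets (1681 and 1779) turned it. The higher genes became the larger side in thinned T cells (122 and 118) and in single endothelial clusters (537 and 491, 727 and 662). Clustering with haemoglobin genes and Ttr gave 1233 in oligodendrocytes and 575 in the haemoglobin-rich cluster. In the main fit that cluster kept 177 without genes under 10% of the highest type. Single clusters gave 8 and 3048 in oligodendrocytes and 1028, 1389 and 1584 in endothelial cells, an alternative chosen after seeing the data. In the order astrocytes, border-associated macrophages, choroid plexus, ependymal, endothelial, microglia, neurons, oligodendrocytes, pericytes, haemoglobin-rich cluster, T and smooth muscle cells, Bonferroni adjustment gave 23, 74, 195, 13, 331, 729, 9, 3, 156, 44, 120 and 105, and thinning every cell to 1000 UMIs gave 56, 265, 299, 6, 965, 3144, 120, 0, 224, 101, 240 and 439. Replicate numbers 1 and 2 were shared by the genotypes, and the deviations of same-numbered libraries correlated at -0.52 to 0.32 (above 0.1 in 4 of 24 pairs). With 3 libraries per genotype these values cannot show or exclude a pairing. The replicate block gave 193 in astrocytes, 97 in ependymal cells, 58 in neurons, 66 in the haemoglobin-rich cluster, 725 in T cells and 623 in smooth muscle cells. Sham + WT library 3 and sham + Lrg1-/- library 5 had no partner, so that fit compared only the libraries numbered 1 and 2. Leaving out each library in turn gave 166 to 607 in astrocytes (166 and 167 without sham + WT libraries 2 and 3), 627 to 1187 in border-associated macrophages (682, 728 and 627 without WT 1, 2 and 3, 786 without Lrg1-/- 2) and 1553 to 3972 in choroid plexus cells (1553 without WT 2, 2114 and 2071 without Lrg1-/- 1 and 2). It gave 35 to 1367 in ependymal cells (82, 35 and 35 without WT 1, 2 and 3, 1367, 66 and 188 without Lrg1-/- 1, 2 and 5), 137 to 1692 in neurons (137, 293 and 227 without WT 1, 2 and 3, 1692 and 400 without Lrg1-/- 1 and 2) and 0 to 920 in oligodendrocytes (97, 0 and 0 without WT 1, 2 and 3, 15 and 181 without Lrg1-/- 1 and 2). It gave 802 to 1174 in pericytes (802 without WT 2), 103 to 635 in the haemoglobin-rich cluster (635, 103 and 148 without WT 1, 2 and 3, 113, 129 and 126 without Lrg1-/- 1, 2 and 5), 976 to 1406 in T cells (976 and 1004 without WT 1 and 2) and 1747 to 3598 in smooth muscle cells (1747 and 1750 without WT 2 and 3, 1862 without Lrg1-/- 2). The 0 calls in oligodendrocytes were by edgeR, with 2254 and 2285 genes at an unadjusted p below 0.05. Interaction calls without a library, were 0 to 1 in astrocytes, 1 to 26 in border-associated macrophages, 0 to 1 in choroid plexus, 362 to 542 in endothelial cells (515, 446 and 362 without WT 1, 2 and 3, 488 and 392 without Lrg1-/- 1 and 2), 531 to 1301 in microglia (661, 663 and 718 without WT 1, 2 and 3, 686 and 531 without Lrg1-/- 1 and 2), 0 to 4 in neurons, 7 to 122 in oligodendrocytes, 0 to 15 in pericytes, 0 to 6 in T and 0 to 5 in smooth muscle cells. With MCAO/R + Lrg1-/- library 5 alone, chosen after seeing the data, they were 4, 9, 30, 3, 572, 1015, 11, 0, 0, 40, 9 and 433 in the order above. Where edgeR called 0 genes, 922 had an unadjusted p below 0.05 in the thinned oligodendrocytes and 493 (haemoglobin-rich cluster) to 1403 (oligodendrocytes) in the interaction fits. The share of ependymal cells ranged from -0.92 to 0.61 percentage points without a library and turned sign without sham + WT library 1 or sham + Lrg1-/- library 1 or 2. Myelin RNA turned to -0.00555 points with doublets kept in border-associated macrophages, to -0.00592 (10% mitochondrial UMIs), -0.000184 (doublets kept) and -0.00445 to 0.00376 (without a library) in choroid plexus cells, and without sham + Lrg1-/- library 1 in microglia and the haemoglobin-rich cluster, where the ranges without a library were -0.00146 to 0.0141 and -0.0126 to 0.0528. On the log2 scale, Calml4 turned to -0.0118 in choroid plexus cells (thinned) and in ependymal cells to 0.00813 (10% mitochondrial UMIs), 0.0109 (doublets kept) and -0.19 to 0.0763 (without a library), where S100a9 turned to -1.23 (doublets kept). Of 3462 values of named genes, 3066 kept their direction and call, and 381 lost the call. The causes were not tested.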
